A study of Mus musculus with 6 samples.

Results

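The genes described here were the fibroblast growth factor (Fgf) ligands, their receptors and the genes that Fgf signalling switches on and that hold it in check. They were taken from the gene list of the deposited matrices by symbol: Fgf or Fgfr followed by digits, Fgfrl1, Spry1 to Spry4, Spred1 to Spred3, Dusp6, Etv1, Etv4 and Etv5. This gave 38 of 32285 genes, of which 22 were ligands, 5 receptors and 11 feedback genes. They were followed in dorsal skin cells of wildtype male FVB mice aged p55-57, whose back skin had been shaved and waxed, which removes the hair shafts and starts a new hair follicle (HF) growth phase. Cells were collected without delay (0 h), after 4 h and 16 h, and on days 2, 4 and 6 (2 d, 4 d, 6 d), and profiled with the 10x Genomics Chromium 3′ kit. Each time point was 1 library, made from the skin of 2 mice that was digested separately and then mixed at equal cell numbers, so the mice of a library could not be told apart and no pair of time points could be tested against each other. All groups shared strain, sex, genotype and treatment, and differed in the time after waxing.

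Fgf ligands are secreted proteins that bind receptor tyrosine kinases on the cell surface together with heparan sulphate, and the activated receptors signal through the Ras and ERK kinases. Among the genes switched on by ERK are the Ets factors Etv1, Etv4 and Etv5, the phosphatase Dusp6, which inactivates ERK, and the Sprouty (Spry) and Spred proteins, which restrain the pathway upstream. In skin, Fgf18 is known as a signal of the resting follicle, Fgf7 and Fgf10 are made by dermal cells and act on the epithelium through a splice form of Fgfr2, and Fgf5 is known for ending hair growth. Fgf11, Fgf12, Fgf13 and Fgf14 carry the family name but are intracellular proteins that do not act through the receptors.

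The stretches of 250 bases upstream of 4 of these genes are given as context, and no link between them and the levels that follow was tested. Fgf18 stands for the bulge, Fgf7 for the dermal cells, Spry2 for the T cells and Dusp6 for the gene with the most UMIs of the 38. All are from RefSeq on GRCm38.p6 and run 5′ to 3′ on the strand of the gene, and capitals mark a GC box. The Fgf18 stretch was chr11:33147401-33147650 on the minus strand, the Fgf7 stretch chr2:126034408-126034657 on the plus strand, the Spry2 stretch chr14:105896820-105897069 on the minus strand and the Dusp6 stretch chr10:99262981-99263230 on the plus strand.
Fgf18: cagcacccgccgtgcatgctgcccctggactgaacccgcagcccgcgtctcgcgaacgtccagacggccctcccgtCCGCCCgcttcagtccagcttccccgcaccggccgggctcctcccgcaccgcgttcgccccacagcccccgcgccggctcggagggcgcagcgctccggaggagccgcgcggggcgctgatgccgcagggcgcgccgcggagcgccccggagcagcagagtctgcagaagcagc
Fgf7: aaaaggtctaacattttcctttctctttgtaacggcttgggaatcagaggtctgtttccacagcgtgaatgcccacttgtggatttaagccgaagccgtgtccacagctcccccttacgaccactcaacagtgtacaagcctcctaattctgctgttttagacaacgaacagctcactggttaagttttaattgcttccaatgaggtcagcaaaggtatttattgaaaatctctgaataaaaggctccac
Spry2: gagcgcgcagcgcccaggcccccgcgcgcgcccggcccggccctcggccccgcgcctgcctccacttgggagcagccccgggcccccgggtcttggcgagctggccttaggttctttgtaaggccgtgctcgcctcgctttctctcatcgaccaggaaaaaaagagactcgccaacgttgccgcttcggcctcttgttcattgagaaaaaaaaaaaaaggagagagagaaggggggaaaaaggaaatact
Dusp6: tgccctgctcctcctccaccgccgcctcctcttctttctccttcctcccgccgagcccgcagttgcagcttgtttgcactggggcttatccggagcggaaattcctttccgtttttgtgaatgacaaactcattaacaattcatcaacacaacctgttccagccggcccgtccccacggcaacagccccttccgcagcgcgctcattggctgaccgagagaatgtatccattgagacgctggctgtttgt

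Guanine and cytosine made up 77.2% of the Fgf18 stretch, 62.4% of that of Spry2, 56.4% of that of Dusp6 and 43.6% of that of Fgf7. Outside chromosome 18, RefSeq gave 37 such stretches for 28 of the 38 genes, and 4 short motifs were searched in them on both strands. Chromosome 18, which holds Fgf1 and Spry4, was left out for the members and not for the stretches of all genes. The GC box GGGCGG was in 23 of the 37 and in 32.7% of all 32851 RefSeq stretches of that length. The Ets motif CCGGAA was in 4 of the 37, those of Fgf5, Fgf12, Fgfr4 and Fgfrl1, and in 12% of all. The AP-1 motif TGANTCA and the forkhead motif TGTTTAC were in 2 of the 37 each and in 6.75% and 3.17% of all. Of the 4 stretches printed, that of Fgf18 held 1 GC box and the other three held none of the 4 motifs. In these coordinates the genes lay apart except for 5 pairs of direct neighbours among them with less than 1 Mb between them, for example Fgf2 and Spry1, 230 kb apart on chromosome 3.

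After filtering, 50502 cells were analysed, between 6520 and 11032 per library, from libraries of 72634390 to 112370376 UMIs. The median cell had between 6032 and 10528 UMIs, and the libraries shared between 7 and 47 cell barcodes pairwise. Cell types were called from marker genes on clusters in whose making the 38 genes took no part. They were the basal and suprabasal interfollicular epidermis (IFE.B, IFE.SB), the basal and suprabasal upper HF (uHF.B, uHF.SB), the sebaceous gland (SG), the outer bulge (OB) and, from a second clustering of the HF cells alone, its subsets OB1, OB2 and OB3, the inner bulge (IB), the inner root sheath clusters IRS1 and IRS3, T cells, Langerhans cells, melanocytes, and dermal papilla (DP) and fibroblasts. All are types by likeness to markers, and a 3rd inner root sheath cluster, IRS2, did not form. The cluster named IRS1 had the IRS2 markers Krt35 and Shh among its leading genes, so it was not a pure type. The OB cluster of the whole skin was made up of OB1 cells (75.0%), IRS1 cells (10.99%) and OB3 cells (10.3%), with only 0.72% OB2 cells, while 94.5% of the OB2 cells lay in the IRS3 cluster of the whole skin. OB below is that cluster, in which IRS1 cells made up 19.6% at 4 d, 8.1% at 6 d and at most 3.43% before, and results on it were computed again for the OB1, OB2 and OB3 cells together, a choice made after seeing the data. OB1, OB2, OB3, IB, IRS1 and IRS3 are from the clustering of the HF cells. Levels are counts per 1e6 UMIs (CPM) of the summed cells of a type in a library, given in order of time from 0 h to 6 d, with exact Poisson 95% intervals that cover counting error only. A level of such a sum cannot tell more cells that express a gene from more RNA per cell. Levels of different genes were not compared.

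Immediate early genes differed between the libraries, and the values stand here once for all results over time. The summed level of 12 such genes, which also respond to cell dissociation, was 32025 CPM in OB1 cells at 0 h against 7528 to 15237 later, and 26422 CPM in IFE.B cells at 0 h against 13978 to 23052 later. Their part in any result over time was not tested.

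**Figure D1:**
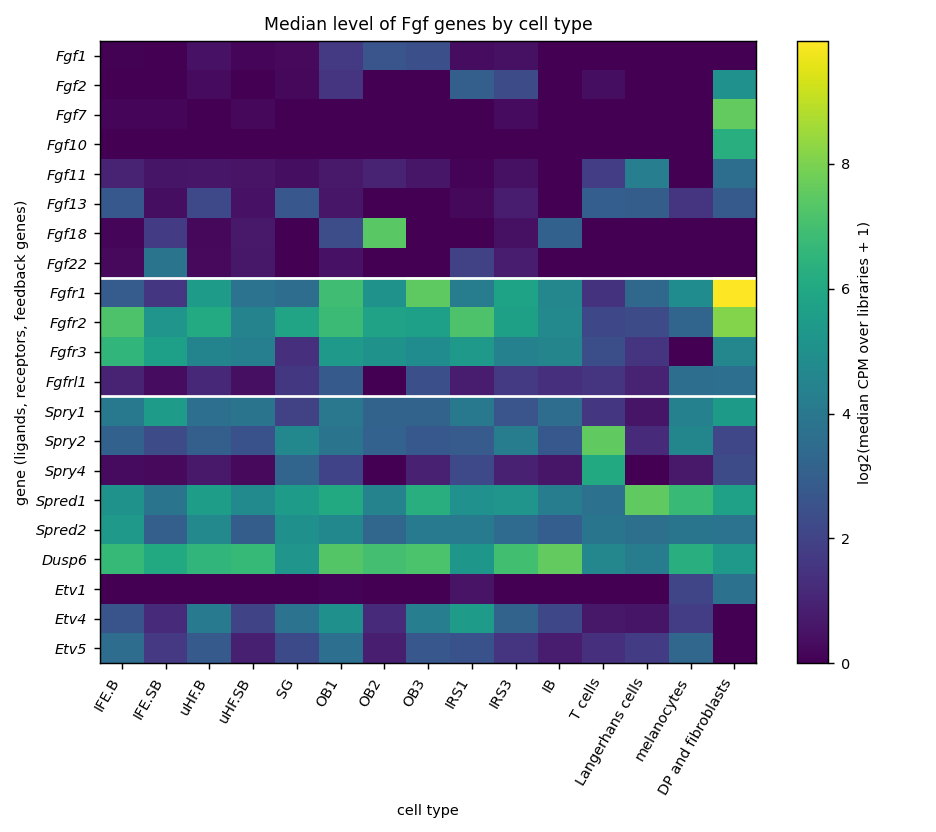
Median level over libraries of 21 Fgf genes (rows; ligands, receptors and feedback genes separated by white lines) in 15 cell types (columns), as log2(median CPM + 1), over the libraries in which the type had at least 20 cells. Fgf18 stood highest in OB2, Fgfr1, Fgf7 and Fgf10 in DP and fibroblasts, and Spry2 and Spry4 in T cells.

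Among the ligands, Fgf18 was highest by median over libraries in OB2 cells. In OB2 cells its level was 425 (363 to 494), 269 (224 to 320), 174 (149 to 202), 84.7 (62.8 to 112), 165 (135 to 199) and 36.6 CPM (25.8 to 50.4). The libraries thus spread over more than their counting error, with 0 h highest and 6 d lowest and 4 d above 2 d. The OB2 marker Sncg stood in the same cells at 659, 205, 589, 122, 220 and 27.7 CPM. At 0 h and 6 d the OB2 markers Gpc6, Myof and Dclk1 stood at 196 and 202, 236 and 362, and 88.0 and 152 CPM. Tspan2 stood at 141 and 126 CPM and Krt15 at 24603 and 12808 CPM in these libraries. The part of what the markers follow in the Fgf18 levels was not tested. In OB1 cells Fgf18 was 38.9 CPM (30.4 to 49.1), 51.3 (42.5 to 61.5), 7.45 (4.95 to 10.8), 0.376 (1 UMI), 0.826 (0.452 to 1.39) and 0.539 (0.147 to 1.38). In OB3 cells it was 0 to 8.54 CPM, in IFE.B cells at most 0.477 CPM and in IFE.SB cells 0.650 to 3.30 CPM. The OB1 levels at 2 d and 6 d lay below that range of IFE.SB.

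OB2 cells held more Fgf18 than OB1 cells in 6 of 6 libraries. The log2 difference was 4.48 ± 0.68 (edgeR quasi-likelihood test with the library as block, adjusted p = 2.56e-05). Values after ± are approximate standard errors, the size of the difference divided by the square root of the F statistic. They are unreliable for genes near 0 UMIs. Fgf18 was also higher in OB than in uHF.B cells by 5.39 ± 0.89 on the log2 scale (adjusted p = 8.06e-06, 6 of 6 libraries), and higher in OB than in IFE.B cells by 5.68 ± 0.79 (adjusted p = 1.64e-07, 6 of 6 libraries). The ranges of the groups overlapped in all 3 comparisons. The OB cluster held 250 Fgf18 UMIs and the OB2 cells 665. With OB1, OB2 and OB3 cells together in its place, the differences were 7.23 ± 0.68 from uHF.B and 7.499 ± 0.613 from IFE.B (adjusted p = 2.72e-11 and 1.91e-13), and Fgf18 stood at 94.4, 79.98, 38.7, 13.95, 6.37 and 4.19 CPM.

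The share of OB2 cells with a Fgf18 UMI, after every cell was thinned to 2000 UMIs, was 57.0% in the first library (49 of 86 cells, exact Clopper-Pearson 95% interval 45.8 to 67.6), then 29.6%, 23.4%, 13.4% and 21.7%, and 5.85% in the last (12 of 205 cells, 3.06 to 10.0). Without thinning the shares at 0 h and 6 d were 69.7% and 8.92%. In OB1 cells the thinned share was 6.07%, 5.52%, 1.79%, 0%, 0.271% and 0%, where 0 of 318 cells at 2 d allows a share of up to 0.943% and 0 of 1235 cells at 6 d up to 0.243%. T cells, which should lack the gene, gave 0% to 0.559%, so the OB1 shares from 2 d on were at the level of background. The median cell had between 2917 and 5369 UMIs in OB2, 4489 and 6988 in OB1, and 2020 and 2702 in T cells.

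**Figure D2:**
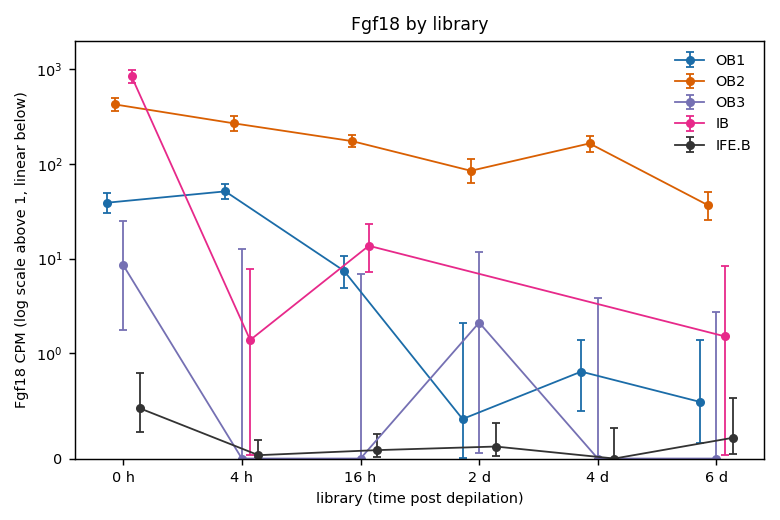
Fgf18 level (CPM, logarithmic above 1 and linear below) in 5 cell types by library; points are the sums of all cells of a type in a library, bars exact Poisson 95% intervals, and lines join the libraries of a type with at least 20 cells. OB2 stayed between 36.6 and 425 CPM, OB1 went from 38.9 CPM at 0 h to under 1 CPM from 2 d on, and IFE.B stayed under 0.5 CPM.

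Over the time course, Fgf18 was the single member called in OB1 cells among the 15 tested (edgeR spline of hours, adjusted p = 0.0422). Its log2 trend, the linear part of the spline from 0 h to 6 d, was -6.62. The p-values over time test all terms of the spline together and not the trend alone. Of all genes tested in OB1, 0.419% were called, 0.1% with a falling trend. In OB2 cells the trend of Fgf18 was -2.77 and the spline did not pass the test (adjusted p = 0.836, edgeR). Whether the trends of OB1 and OB2 differ was not tested. In the OB cluster, which holds few OB2 cells, the trend was -6.89 (adjusted p = 0.0751), and in OB1, OB2 and OB3 cells together it was -4.77 (adjusted p = 0.0793, edgeR), in a fit that called 1 of 11524 genes.

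OB1 held 3 clusters whose shares differed between libraries, and Fgf18 was unequal among them. In the cluster led by Krt24 and Cd34, Fgf18 stood at 47.4, 131, 20.2, 2.87, 13.7 and 2.42 CPM, and in the other two clusters at most at 4.20 CPM in any library. That cluster made up 83.7%, 34.2%, 37.9%, 22.3%, 7.26% and 27.9% of OB1 cells in the 6 libraries. Within it alone the trend of Fgf18 was -4.56 and the spline no longer passed the test (adjusted p = 0.391, edgeR), in a fit that called 3 of 8659 genes. The OB1 call was also lost with doublets kept and with a straight line in place of the spline, and leaving out any library kept it. The part of the cluster shares in the OB1 levels of the other members over time was not tested.

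IB cells at 0 h held the highest level of Fgf18 of any sum, 842 CPM (710 to 992, 22 cells), against 1.38 CPM at 4 h, 13.7 at 16 h and 1.51 at 6 d. In these 22 cells the OB2 markers Sncg, Myof, Gpc6 and Tspan2 stood at 41.2, 82.5, 118 and 88.4 CPM. In OB2 cells at 0 h they stood at 659, 236, 196 and 141 CPM. There Dclk1 was lower (88.0 against 165 CPM) and Krt15 stood at 24603 CPM. The 22 cells also differed from later IB cells in some other genes and not in all. Their bulge keratin Krt15 was at 24291 CPM against 531 at 4 h, 1073 at 16 h and 2663 at 6 d. Krt75, a keratin of the companion layer, was at 1202 CPM against 29.0, 23.1 and 1330, so near its 6 d level. Of the other IB markers, Cryab (1149 against 546, 1357 and 1099 CPM) lay within the later range. Cdsn (1084 against 138, 804 and 872) and Timp3 (3128 against 73.2, 146 and 162) lay above it. Krt6a (1491 against 4825, 3758 and 2794) and Cldn4 (271 against 602, 685 and 736) lay below it. Fgf18 was higher in IB than in uHF.SB cells by 5.27 ± 1.03 on the log2 scale (adjusted p = 0.000507, 4 of 4 libraries), 1 of 3 members called higher of 16 tested, in a comparison that called 18.2% of all genes and 6.61% higher. The others were Fgfrl1 (3.60 ± 0.78, adjusted p = 0.000896, higher in 2 of 4 libraries) and Fgf5, which had 3 UMIs in IB cells at 0 h, 6 at 6 d and none at 4 h and 16 h. Without the 0 h library Fgf18 was not called (2.09, adjusted p = 0.331, edgeR), and without the 6 d library Fgfrl1 was not (3.17, adjusted p = 0.054). Of the 2 uHF.SB clusters of the HF cells, the smaller one (2193 cells against 2477) had Flg, Krt1 and Krt10 among its leading genes, which also mark IFE.SB.

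Fgf7 and Fgf10, the dermal ligands of the epithelial Fgfr2 form, were genes of the DP and fibroblast cells. Fgf7 stood there at 81.4 CPM in 128 cells of the 4 d library (57.3 to 112) and 299.99 CPM in 25 cells of the 6 d library (212 to 412), and in all other types at 2.27 CPM or less. Fgf10 stood at 35.2 (20.1 to 57.1) and 118 CPM (66.3 to 195) in the same libraries, and elsewhere at 0.559 CPM or less. These are the libraries in which at least 20 DP and fibroblast cells were found. After thinning, 13.5% of the cells at 4 d and 26.1% at 6 d had a Fgf7 UMI, against at most 0.0672% of IFE.B cells. Compared with IFE.B, Fgf7 was higher by 10.74 ± 0.72 and Fgf10 by 10.90 ± 1.05 on the log2 scale (adjusted p = 1.70e-16 and 3.61e-07, 2 of 2 libraries each), where the 2nd value rests on 1 UMI of Fgf10 in IFE.B. Of the 6 DP and fibroblast markers, none was at 0 in the 4 d library (8519 CPM in sum in the skin clustering) and 2 were at 0 in the 6 d library (1563 CPM). The 4 endothelial markers came to 187 CPM in the 4 d cells and 7.89 CPM in the 6 d cells, and their part in these levels was not tested.

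Fgf2, a broadly acting ligand that lacks a classical secretion signal, was also highest in DP and fibroblasts, at 39.6 CPM at 4 d (18 UMIs) and 23.7 at 6 d (3 UMIs). In OB1 cells Fgf2 stood at 0.548, 0.870, 0, 3.005, 6.14 and 3.23 CPM. In OB2 cells it was at 0 in 6 of 6 libraries, where 3 UMIs would be 2.93 to 7.54 CPM. The fit over all libraries called Fgf2 lower in OB2 (adjusted p = 0.0402), with groups that overlapped, and the call was lost without the 0 h, the 4 h, the 2 d or the 6 d library (adjusted p = 0.057, 0.058, 0.0947 and 0.088, edgeR). In OB cells Fgf2 was higher than in uHF.B cells by 2.64 ± 0.59 (adjusted p = 0.00062, 5 of 6 libraries).

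Fgf1, which can bind all of the receptors, stood at 24.7 CPM in OB1 cells at 0 h (18.0 to 33.0, 45 UMIs) and at 1.30, 1.86, 2.63, 1.89 and 2.56 CPM after that. The 0 h library stood apart from the other five, whose counting intervals all overlapped. In OB2 cells Fgf1 was at 0 to 7.54 CPM and in OB3 cells at 0 to 17.1 CPM, again highest at 0 h. OB cells held more Fgf1 than IFE.B cells in 6 of 6 libraries (log2 difference 5.93 ± 0.65, adjusted p = 3.34e-09) and more than uHF.B cells in 6 of 6 (2.66 ± 0.56, adjusted p = 0.000401). Over time Fgf1 was not called in OB, and in OB1 it did not pass the count filter. Its log2 trend was -2.18 in OB and -0.90 in the Krt24 and Cd34 cluster of OB1, where it was not called either.

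Fgf22, known as a ligand of the epidermis and of synapses, was the ligand of the suprabasal epidermis. In IFE.SB cells it stood at 18.6 CPM (16.9 to 20.3), 5.31 (4.31 to 6.47), 8.39 (7.32 to 9.58), 1.84 (1.32 to 2.48), 17.9 (14.5 to 21.8) and 25.8 (23.6 to 28.2), so the 2 d library was lowest and the 6 d library highest. The IFE.SB cells fell into a spinous-like cluster and a cluster led by Lor and Lce1 genes of the cornified layer, and Fgf22 was in the second, at 3.89 to 54.7 CPM against at most 0.591 CPM in the first. In IFE.B cells it was at 0.448 CPM or less. Fgf22 was higher in IFE.SB than in IFE.B cells by 5.61 ± 0.48 (adjusted p = 2.84e-13, 6 of 6 libraries, ranges apart) and higher in uHF.SB than in uHF.B cells by 3.19 ± 0.69 (adjusted p = 0.000257), although only 3 of 6 libraries were higher there and the call was lost without the 6 d library (1.98, adjusted p = 0.0753). After thinning, 0.448% to 2.60% of IFE.SB cells and 0% to 0.237% of T cells had a Fgf22 UMI.

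Of the intracellular family members, Fgf13 stood in IFE.B cells at 4.59, 1.02, 6.29, 7.18, 5.73 and 5.87 CPM, with 4 h lowest, and in T cells at 3.49 to 11.4 CPM. Fgf13 was lower in IFE.SB than in IFE.B at a log2 difference of -3.48 ± 0.39 (adjusted p = 2.28e-10), lower in uHF.SB than in uHF.B at a log2 difference of -2.65 ± 0.46 (adjusted p = 7.32e-06) and lower in OB than in uHF.B at a log2 difference of -2.49 ± 0.45 (adjusted p = 2.64e-05), each in 6 of 6 libraries. Fgf11 stood in Langerhans cells, the dendritic cells of the epidermis, at 22.8, 17.03, 19.6, 17.3, 26.8 and 11.6 CPM from 5 to 18 UMIs each, and these levels could not be told apart by their counting intervals. Fgf11 was higher there than in IFE.B by 4.17 ± 0.38 (adjusted p = 1.61e-13, 6 of 6 libraries, ranges apart).

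The other ligands were near the limit of detection in 50502 cells. Fgf15 had 97 UMIs in all, Fgf9 72, Fgf21 67, Fgf5 29, Fgf20 11, Fgf12 9, Fgf8 7, Fgf3, Fgf16 and Fgf17 4 each and Fgf4 and Fgf14 1 each, while Fgf6 and Fgf23 had none.

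The 3 signalling receptors had distinct distributions. Fgfr1 was highest in DP and fibroblasts, followed by OB1 and OB3, Fgfr2 was spread over the epithelium and the dermal cells, and Fgfr3 was highest in the interfollicular epidermis. In DP and fibroblasts Fgfr1 stood at 1084 (991 to 1184) and 924 CPM (764 to 1107) in the 4 d and 6 d libraries. In OB1 cells it stood at 191 CPM (172 to 212), 116 (103 to 131), 123 (112 to 135), 99.5 (87.9 to 112), 99.96 (95.3 to 105) and 136 (127 to 144), with 0 h highest.

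OB3 held Fgfr1 at 58.3 to 268 CPM, OB2 at 20.6 to 45.3 CPM, uHF.B at 15.6 to 66.6 CPM and IFE.B at 1.22 to 8.85 CPM. The order of the levels, by median, placed OB3 and OB1 next to each other with overlapping ranges, and OB2 and uHF.B likewise overlapped. Fgfr1 was higher in OB than in uHF.B by 1.46 ± 0.25 (adjusted p = 9.61e-06, 6 of 6 libraries, ranges apart) and higher than in IFE.B by 4.24 ± 0.28 (adjusted p = 1.26e-17, 6 of 6, ranges apart). Within the bulge it was lower in OB2 than in OB1 at a log2 difference of -1.92 ± 0.27 (adjusted p = 3.10e-06, 6 of 6 libraries, ranges apart). OB2, by median the subset with most Fgf18, was also the one of the 3 OB subsets with least Fgfr1. After thinning, 18.2% to 32.9% of OB1 cells had a Fgfr1 UMI against 0% to 0.864% of T cells.

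Fgfr2 stood in IFE.B cells at 176 CPM (171 to 181), 65.9 (63.1 to 68.8), 149 (145 to 153), 124 (120 to 129), 140.0 (133 to 146) and 147 (141 to 153). The 4 h library was the lowest, outside the counting intervals of all others, and 4 h was also lowest in uHF.B (48.6 CPM against 56.5 to 114), IFE.SB (20.9 against 30.9 to 44.7) and SG (17.5 against 38.5 to 74.7). In OB1 cells 4 h was not the lowest, and the levels ran 89.3, 115, 68.6, 106, 157 and 135 CPM. DP and fibroblasts held 295 CPM at 4 d and 261 at 6 d. Fgfr2 was lower in IFE.SB than in IFE.B at a log2 difference of -1.70 ± 0.23 (adjusted p = 3.11e-08) and lower in uHF.SB than in uHF.B at a log2 difference of -1.48 ± 0.24 (adjusted p = 1.77e-06), both in 6 of 6 libraries with ranges apart. It was lower in OB2 than in OB1 (-0.91 ± 0.22, adjusted p = 0.00277) and in OB3 than in OB1 (-1.27 ± 0.23, adjusted p = 0.000255), in 6 of 6 libraries each.

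Fgfr3 differed little between the libraries in IFE.B cells, at 86.5, 93.5, 103, 94.7, 101 and 87.8 CPM. In OB1 cells it stood at 75.1, 23.1, 31.4, 30.05, 47.5 and 50.8 CPM, with 0 h highest. Fgfr3 was lower in OB than in IFE.B at a log2 difference of -1.61 ± 0.19 (adjusted p = 7.24e-10, 6 of 6 libraries, ranges apart), and lower in IFE.SB than in IFE.B at a log2 difference of -0.84 ± 0.18 (adjusted p = 0.000146, 6 of 6, ranges apart). OB cells held more Fgfr3 than uHF.B cells by 0.69 ± 0.19 (adjusted p = 0.00506, 6 of 6), which was not called without the 6 d library (0.57, adjusted p = 0.0721). SG cells held 1.06 to 2.08 CPM, and the difference from IFE.B was the largest of the receptor differences in SG, at -6.12 ± 0.28 on the log2 scale (adjusted p = 7.42e-24, 5 of 5 libraries). After thinning, 16.3% to 18.8% of IFE.B cells had a Fgfr3 UMI against 0% to 1.76% of T cells.

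Fgfrl1, a receptor relative without a kinase domain, stood at 5.55 to 19.1 CPM in melanocytes and 3.48 to 8.77 CPM in OB1. Fgfrl1 was higher in OB than in uHF.B by 1.90 ± 0.32 (adjusted p = 6.68e-06, 6 of 6 libraries, ranges apart) and lower in OB2 than in OB1 at a log2 difference of -3.42 ± 0.63 (adjusted p = 0.000126, 6 of 6, ranges apart). Fgfr4 had 14 UMIs in all.

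**Figure D3:**
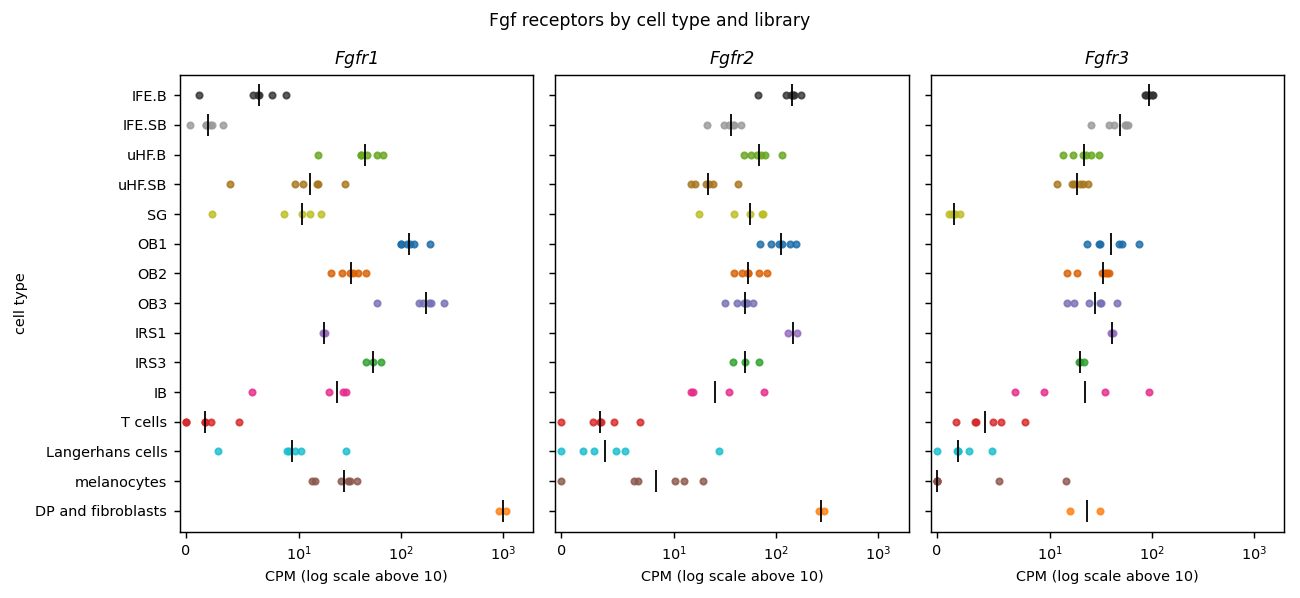
Levels of Fgfr1, Fgfr2 and Fgfr3 (panels; CPM, logarithmic above 10 and linear below) in 15 cell types; each point is 1 library with at least 20 cells of the type and the black bar is the median. Fgfr1 reached 924 and 1084 CPM in DP and fibroblasts, and Fgfr3 in SG stayed between 1.06 and 2.08 CPM.

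Among the feedback genes, the Sprouty genes Spry2 and Spry4 were highest in T cells, which in mouse epidermis are mostly of the gamma delta kind, and the larger T cell cluster here was led by Trdc. Spry2 stood there at 256 CPM (216 to 301), 106 (85.3 to 129), 171 (139 to 208), 289 (264 to 315), 182 (163 to 202) and 192 (163 to 225), so 4 h was lowest and 2 d highest. Spry4 stood at 78.9, 61.3, 68.0, 62.6, 69.4 and 49.0 CPM, with overlapping counting intervals. In the smaller T cell cluster, led by Icos, Il17a and Gzmc, Spry4 stood at 0 to 26.7 CPM, against 61.3 to 84.0 CPM in the larger one.

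Compared with IFE.B, T cells had more Spry2 (4.35 ± 0.20 on the log2 scale, adjusted p = 1.04e-24) and more Spry4 (7.91 ± 0.41, adjusted p = 1.51e-22), in 6 of 6 libraries with ranges apart. The thinned share of T cells with a Spry2 UMI was 22.0% to 39.8% against 0.926% to 2.12% of IFE.B cells, and for Spry4 it was 7.93% to 13.8% against 0% to 0.0672%. The receptors Fgfr2 and Fgfr3 were low in the same cells. Fgfr1 was lower there than in IFE.B too, at a log2 difference of -1.71 ± 0.49 (edgeR adjusted p = 0.0024, 6 of 6 libraries, ranges overlapping). Its sign turned with doublets kept. Fgfr2 was lower than in IFE.B at a log2 difference of -5.53 ± 0.36 (adjusted p = 1.16e-18) and Fgfr3 at a log2 difference of -4.61 ± 0.27 (adjusted p = 2.06e-20), each in 6 of 6 libraries with ranges apart. In SG cells Spry4 (4.999 ± 0.413, adjusted p = 1.02e-14), Spry3 (4.76 ± 0.52, adjusted p = 1.52e-09) and Spry2 (1.65 ± 0.19, adjusted p = 4.49e-10) were above IFE.B in 5 of 5 libraries.

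Spry1 stood in IFE.SB cells at 50.7, 35.0, 55.5, 44.8, 43.0 and 25.9 CPM and was higher there than in IFE.B by 1.55 ± 0.22 (adjusted p = 9.7e-08, 6 of 6 libraries). In OB1 cells Spry1 was at 54.3 CPM at 0 h (44.1 to 66.05) and at 9.91 to 27.9 CPM afterwards, and in IFE.B and uHF.B cells 0 h was highest too, at 32.8 and 24.4 CPM. The spline of hours called none of these differences of Spry1, while with time as log2(hours + 1) they were called in OB1 and OB. Within the Krt24 and Cd34 cluster of OB1 alone, the log2 trend of Spry1 was -0.53, against -2.13 in all OB1 cells. Spry1 was not called in that cluster.

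Dusp6, the ERK phosphatase, was detected in every type, at 7.71 CPM or more. By median over libraries it was highest in IB cells, at 188 CPM (151 to 399 over 4 libraries). In IFE.B cells it stood at 73.1 CPM (69.9 to 76.4), 243 (238 to 249), 119 (115 to 122), 192 (187 to 197), 82.8 (77.9 to 87.9) and 60.7 (56.8 to 64.7), with peaks at 4 h and 2 d. IFE.SB cells had the same order of high and low libraries at 4 h and 2 d, with 37.9, 195, 76.6, 184, 46.9 and 55.2 CPM. OB1 cells had another, with 201, 130.5, 135, 205, 97.0 and 176 CPM, and OB2 cells peaked at 4 h at 309 CPM. T cells held 20.9 to 38.3 CPM. Dusp6 was not called over time in any type. It was lower than in IFE.B in T cells (-2.50 ± 0.30, adjusted p = 5.07e-10), SG (-2.20 ± 0.29, adjusted p = 7.77e-09) and Langerhans cells (-2.63 ± 0.33, adjusted p = 2.36e-09), with ranges apart.

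The Ets factors Etv4 and Etv5 were found in the HF, in basal epidermis and in parts of other types. Etv4 stood in OB1 cells at 18.1, 13.9, 35.4, 41.3, 45.9 and 26.4 CPM and in IRS1 cells at 23.9 CPM at 4 d and 64.7 at 6 d. In IFE.B cells Etv4 was at 18.1 CPM at 4 h against 3.78 to 11.1 in the other libraries. OB held more Etv4 than IFE.B by 1.88 ± 0.32 (adjusted p = 4.40e-06, 5 of 6 libraries), and OB2 held less than OB1 at a log2 difference of -4.39 ± 0.59 (adjusted p = 1.43e-06, 6 of 6, ranges apart). Etv5 stood in OB1 cells at 9.86, 3.04, 14.1, 16.5, 10.8 and 12.1 CPM and was lower in OB2 at a log2 difference of -2.90 ± 0.51 (adjusted p = 8.29e-05, 6 of 6). In SG cells Etv4 stood at 11.03 to 36.8 CPM and was above IFE.B by 1.04 ± 0.33 (adjusted p = 0.00887, 5 of 5 libraries, ranges overlapping). Without the 16 h library Etv4 was not called there (0.88, adjusted p = 0.0694, edgeR). Etv5 was lower in SG than in IFE.B at a log2 difference of -1.74 ± 0.43 (adjusted p = 0.000825, 5 of 5, ranges apart). In melanocytes Etv5 stood at 0 to 41.9 CPM with a median of 8.74, and neither Etv4 nor Etv5 was called against IFE.B. Etv1 was found in DP and fibroblasts, at 8.80 CPM at 4 d and 15.8 at 6 d from 4 and 2 UMIs, and was above IFE.B there by 7.33 ± 1.22 (adjusted p = 0.00017, 2 of 2 libraries, ranges apart). It was also found in melanocytes, at 0 CPM in the first 3 libraries and at 6.44, 14.8 and 35.2 CPM from 2 d on, from 2, 24 and 14 UMIs. At 0 h, 4 h and 16 h the melanocyte sums would need 43.6, 18.7 and 19.1 CPM of Etv1 for 3 UMIs. The level at 4 d lay below that in each of these 3 libraries taken singly, and they were not pooled.

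Of the Spred genes, Spred1 stood in Langerhans cells at 209, 247, 141, 174, 65.7 and 200.4 CPM, with 4 d lowest, and was above IFE.B by 2.16 ± 0.20 (adjusted p = 1.32e-13, 6 of 6 libraries, ranges apart). Melanocytes also had more Spred1 than IFE.B, by 1.07 ± 0.21 (adjusted p = 4.60e-05, 6 of 6, ranges apart). Spred1 is the gene mutated in Legius syndrome, a disorder with pigmented skin spots. Spred2 stood in IFE.B cells at 47.7, 9.63, 38.2, 55.4, 40.8 and 30.9 CPM, with 4 h lowest and outside the counting intervals of the others. Spred2 was lower in IFE.SB than in IFE.B at a log2 difference of -2.06 ± 0.21 (adjusted p = 1.34e-11, 6 of 6 libraries). Spred3 was low, at 1.502 to 6.58 CPM in OB1, and was higher in OB than in uHF.B by 2.14 ± 0.43 (adjusted p = 0.000166, 6 of 6).

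**Figure D4:**
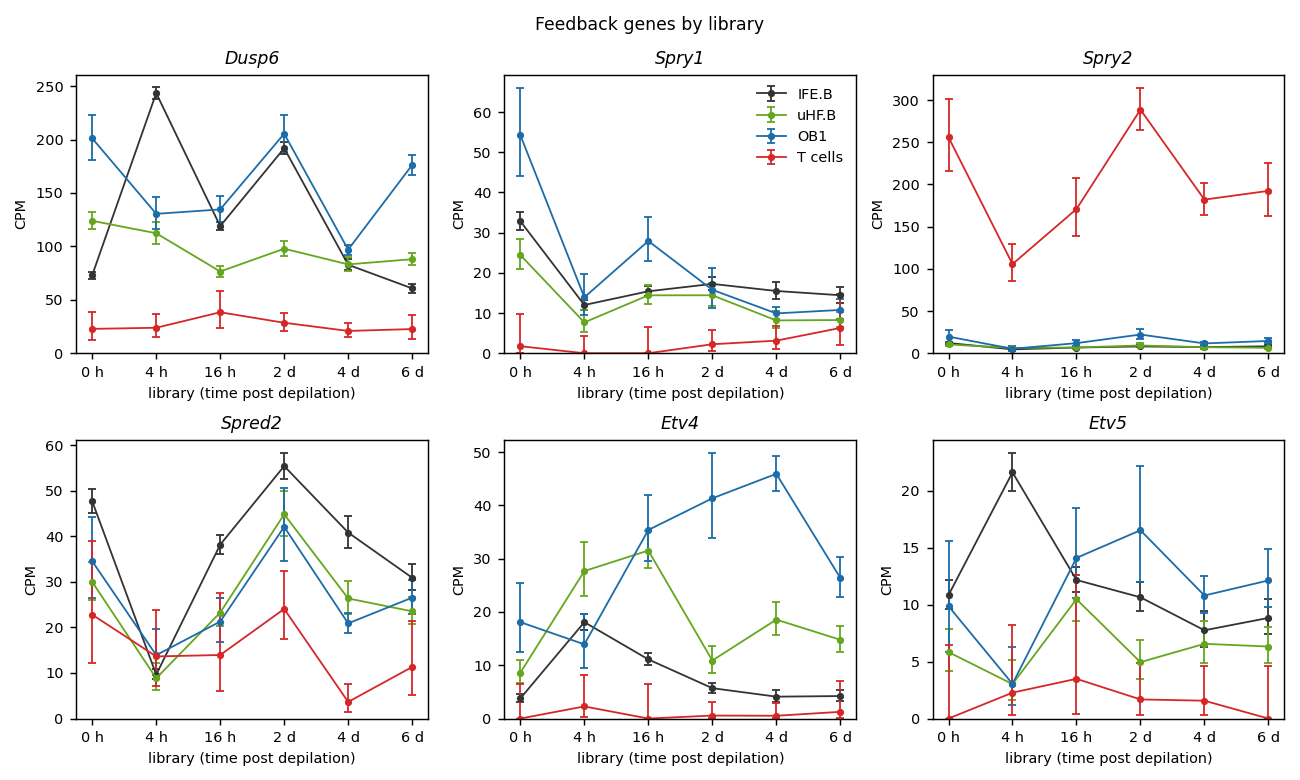
Levels (CPM) of 6 feedback genes by library in IFE.B, uHF.B, OB1 and T cells; points are the sums of all cells of a type in a library and bars exact Poisson 95% intervals. Dusp6 in IFE.B peaked at 243 CPM at 4 h and 192 at 2 d, Spred2 in IFE.B was lowest at 4 h at 9.63 CPM, and Spry2 was between 106 and 289 CPM in T cells.

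By comparison, the members called were as follows, of 23 tested among skin types and 16 among HF types. Members are low genes in part, and those that passed the count filter are not all 38. OB against uHF.B gave 8 higher and 1 lower, where 22.1% of all genes were called (13.3% higher, 8.8% lower), and OB against IFE.B 10 higher and 5 lower (36.2% of all genes, 20% higher). IFE.SB against IFE.B gave 3 higher and 10 lower (42.3%, 20.6% lower), and uHF.SB against uHF.B 2 higher and 8 lower (36.4%, 17.4% lower). The higher genes were Fgf18, Fgf22 and Spry1 in IFE.SB and Fgf18 and Fgf22 in uHF.SB, where Fgf18 was not called without the 0 h, the 16 h, the 2 d or the 4 d library (adjusted p = 0.119, 0.0978, 0.182 and 0.145), and both lists of lower genes held Fgfr1, Fgfr2, Fgfrl1, Fgf13, Etv4, Etv5, Spred1 and Spred2. The median log2 difference of the members in IFE.SB was -0.67 against -0.01 for all genes tested. It includes Fgf2, Fgf10 and Etv1, which had no UMI in IFE.SB and could only be lower.

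Within the HF, OB2 against OB1 gave 1 member higher, Fgf18, and 11 lower (24.6% of all genes called, 14.7% lower). The median difference was -1.35 over the 16 members and -0.07 over all genes. Fgf2, Fgf5 and Spry4 had no UMI in OB2, so they passed the count filter through other types and could only be lower. The median thus leans downward in advance and is no result about the members as a set. OB3 against OB1 gave 5 lower and none higher (8.79% of all genes, 4.25% lower), Spry1, Spry2, Spred2, Fgfr2 and Fgfr3, with 3 called without the 0 h, the 2 d or the 4 d library. IRS1 against OB1 gave 8 lower and none higher (26.6%, 10.1% higher and 16.6% lower), over 2 libraries, and IRS3 against OB1 11 lower and none higher (22.6%, 11.6% lower), over 3, with 4 called without the 4 d library and 3 without the 6 d library. In IRS3, Fgfr1, Fgfr2 and Fgfr3 were lower than in OB1 at a log2 difference of -1.23 ± 0.31, -1.06 ± 0.27 and -1.12 ± 0.25 (adjusted p = 0.004, 0.0048 and 0.00128). Without the 4 d library Fgfr1 and Fgfr3 were not called there (adjusted p = 0.0521 and 0.0667), and without the 6 d library Fgfr1 and Fgfr2 were not (0.0856 and 0.142). In IRS1, Fgfr1 was lower at a log2 difference of -2.87 ± 0.41 (adjusted p = 2.71e-06), while Fgfr2 was at 160 CPM at 4 d and 130 at 6 d and was not called. These comparisons share the OB1 sums.

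Outside the follicle, SG against IFE.B gave 8 higher and 7 lower (43.6% of all genes called), T cells 4 higher and 9 lower (59.2%), Langerhans cells 2 higher and 8 lower (50.6%), melanocytes 7 higher and 4 lower (39.9%), and DP and fibroblasts 10 higher and 3 lower (29.3%). They share the IFE.B sums. In melanocytes Fgfr1 (1.47 ± 0.40, adjusted p = 0.00262) and Fgfrl1 (2.80 ± 0.46, adjusted p = 1.56e-06) were higher in 6 of 6 libraries, and Etv1 was higher where it was detected. The call of Fgf7 in melanocytes (adjusted p = 0.0284) rested on the 4 d library and took the other sign without it. In DP and fibroblasts Fgfr1 was higher by 6.64 ± 0.35 (adjusted p = 9.71e-21) and Fgf2 by 7.27 ± 0.83 (adjusted p = 1.29e-09), in 2 of 2 libraries.

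**Figure D5:**
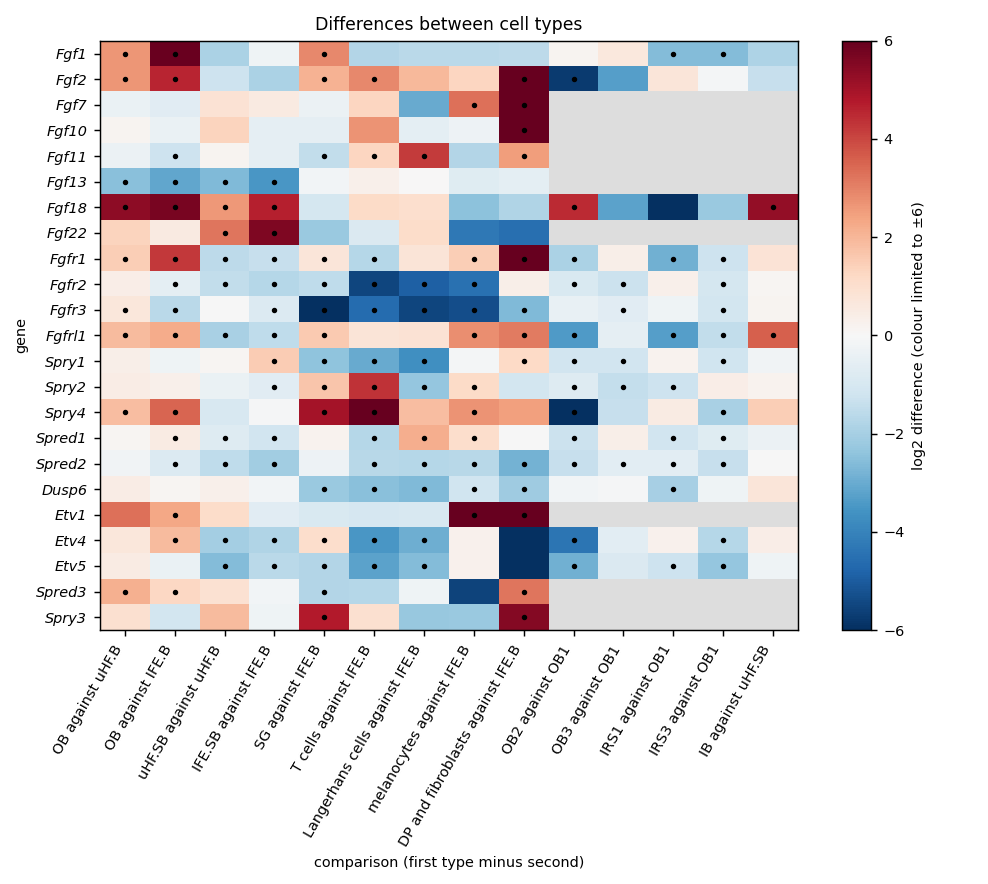
Log2 differences (first type minus second) of 23 Fgf genes in 14 comparisons of cell types, colour limited to ±6; dots mark adjusted p under 0.05 (edgeR) and grey marks genes not tested. Fgf18 was the one member higher in OB2 than in OB1, and Fgfr2 and Fgfr3 were lower than in IFE.B in SG, T cells, Langerhans cells and melanocytes.

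Over time, no member was called in IFE.B (14 tested), IFE.SB (15), uHF.B (12), uHF.SB (12), OB2 (6) or OB3 (7), where 0% of all genes were called. Likewise none was called in T cells (5 tested, 0.0514% of all genes called), Langerhans cells (3, 0.0492%), melanocytes (2, 3.08%) or OB (16, 0.0525%). At an unadjusted p under 0.05 stood 1 member each in OB, OB1 and OB2, Fgf18 in each, and 1 in uHF.SB, Fgf22. DESeq2 called Fgf18 in OB2 and in OB by its likelihood ratio test. Single libraries decided some of these counts. Without the 4 h library Fgf22 and Dusp6 were called in IFE.SB, Fgf18 and Dusp6 in OB2, and Fgf18, Fgf2 and Spry1 in OB1, and without the 0 h library Fgf18 and Fgf2 were called in OB and OB1 and Spry2 in T cells. Fgf18 was called in OB without the 4 h, the 2 d, the 4 d or the 6 d library. Each fit had 6 libraries and 2 residual degrees of freedom, and its p-values measure the scatter of single libraries around a curve.

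Other genes of the pathway were described from a list of 46 adaptors, kinases, co-receptors, heparan sulphate enzymes and inhibitors. None was called over time in any type. In OB against uHF.B, 8 of 44 tested were higher and 3 lower, where 13.3% of all genes were higher and 8.8% lower, so the list as a whole stood near the background. The higher ones included Sulf1 (1.79 ± 0.50, adjusted p = 0.008) and Sulf2 (1.53 ± 0.34, adjusted p = 0.00047), which remove sulphate from heparan sulphate, and Sdc3 (2.21 ± 0.42, adjusted p = 5.7e-05), a proteoglycan that carries it. Fgfbp1, which frees Fgf ligands from the matrix, was lower (-1.78 ± 0.27, adjusted p = 1.1e-06). In OB2 against OB1, 7 of 42 were higher (9.9% of all genes), with Sulf2 at 2.16 ± 0.25 (adjusted p = 1.1e-07), and 5 lower (14.7% of all genes), with the receptor inhibitor Il17rd at -2.68 ± 0.60 (adjusted p = 0.0012).

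In T cells 13 of 44 were higher and 17 lower than in IFE.B, where 27.7% of all genes were higher and 31.6% lower. The ERK phosphatases Dusp4 (5.07 ± 0.48, adjusted p = 2.5e-13) and Dusp5 (2.67 ± 0.33, adjusted p = 1.3e-09) were higher, as was Plcg1 (3.42 ± 0.19, adjusted p = 1.8e-21). The proteoglycans Sdc1, Sdc2, Sdc4 and Gpc1 were lower. In DP and fibroblasts 9 were higher and 8 lower (15.2% and 14.1% of all genes), with Sulf1 at 11.82 ± 0.70 (adjusted p = 7.5e-16). In SG cells 5 were higher and 17 lower (20.3% and 23.3% of all genes), with Dusp4 at 7.07 ± 0.42 (adjusted p = 1.2e-19) and Hs6st2, a heparan sulphate 6-O-sulphotransferase, at 8.04 ± 0.50 (adjusted p = 1.3e-15). The counts of the other comparisons follow, each with the shares of all genes in brackets. IFE.SB had 12 higher and 6 lower than IFE.B (21.7% and 20.6%), and uHF.SB 13 higher and 4 lower than uHF.B (19% and 17.4%). OB had 12 higher and 9 lower than IFE.B (20% and 16.2%), Langerhans cells 13 and 20 (21.9% and 28.7%) and melanocytes 9 and 12 (18.1% and 21.8%). Of 42 tested in the HF, IRS1 had 3 higher and 13 lower than OB1 (10.1% and 16.6%), IRS3 10 and 6 (11% and 11.6%) and OB3 4 and 3 (4.54% and 4.25%), and IB had 3 higher and 4 lower than uHF.SB (6.61% and 11.6%). Klotho (Kl) and beta-Klotho (Klb), the co-receptors of the endocrine ligands Fgf15, Fgf21 and Fgf23, had 3 and 6 UMIs in all.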

How the data were processed

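The matrices deposited by the authors are the filtered output of Cell Ranger, raw UMI counts per gene and barcode. The submitters' processing notes name Cell Ranger 6.1.2 and mm10, and the treatment of intronic reads is not given in the sources used here. Of 61031 barcodes, 55177 had 500 to 7000 genes and a mitochondrial share of at most 10%. As doublets, the highest Scrublet scores (scanpy 1.11.5) were removed at 0.8% per 1000 barcodes of a library (4675 cells), in place of the study's own caller, and 50502 cells were kept. Cells were integrated by reciprocal principal components and clustered with Seurat 5.3.0 (2000 variable genes, 30 components, resolution 0.2 for skin and 0.4 for HF cells). The 38 members, 46 pathway genes, 10 cycling markers and genes with a cycle correlation above 0.2 were kept out, 479 genes in skin and 494 in HF cells. Clusters were named from marker lists as likenesses, and OB tests used the OB cluster of the whole skin, with OB1, OB2 and OB3 cells together as an added alternative. An IRS2 cluster did not form, and IRS1 against OB1 was added after seeing the data. A mixed HF cluster of 3267 cells stayed unnamed.

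UMIs were summed per type and library of at least 20 cells and tested with edgeR 4.0.16 in R 4.3.3 (TMM, filterByExpr, robust quasi-likelihood fit, Benjamini-Hochberg over all genes, called at 0.05). Time courses were natural splines over hours (3 degrees of freedom, 2 residual). Types were compared with the library as block, in a fit of 55 skin sums (40 residual degrees of freedom) and 39 HF sums (26). With 1 library per time point, p-values measure the spread between libraries, across time. Values are CPM with exact Poisson 95% intervals, and shares of cells were thinned to 2000 UMIs, with cells below that left out. Intervals and limits cover counting error only. Alternatives were other normalization, tool, filter, time scale, curve, block, doublets, cells per sum, resolution, seed, thinning and leaving out each library, with DESeq2 1.42.0 as the other tool. The scripts were tested on simulated data.

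A member was named with its values where a sum of at least 20 cells held at least 10 UMIs and 10 CPM of it, or where a fit called it, and other members by their total UMIs. The members and lists were chosen with earlier results of these data known. Fitted folds of genes at 0 in a group depend on the prior count and are no bounds.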

Additional observations from a re-analysis of the deposited data

Results flagged for a closer look

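Sums of fewer than 20 cells entered no fit, and some held clear signal of a member, above the level that 3 UMIs would give. Among DP and fibroblasts, Fgfr1 was at 397 CPM at 0 h (19 cells), 212 CPM at 4 h (18 cells) and 538 CPM at 16 h (14 cells), against 924 CPM or more in the libraries with enough cells. At 0 h these cells also held Etv1 at 209 CPM and Spred1 at 251 CPM. Endothelial markers in the same sums of the skin clustering came to 0 CPM at 0 h, 1249 CPM at 4 h, 2344 CPM at 16 h and 1451 CPM at 2 d, and their part in these levels was not tested.

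Fgf18 was at 170.0 CPM in 13 IB cells at 4 d, from 10 UMIs. Dusp6 was at 153 CPM in 10 IB cells at 2 d, at 132 CPM in 15 IRS1 cells at 2 d and at 70.6 CPM in 14 SG cells at 0 h. Fgfr2 was at 108 CPM in the 15 IRS1 cells at 2 d and at 70.6 CPM in the 14 SG cells at 0 h.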

How the results depend on the processing

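Time points could not be paired, because each was 1 library and the replicate number 1 that all carry links no mice across time. Cell types were compared within libraries, with the library as block. Over time, 1 member was called in OB1, and 0 with doublets kept, 0 with a straight line, 2 on the log2(hours + 1) scale and 0 in the Krt24 and Cd34 cluster alone, the last chosen after seeing the data. In OB, 0 were called, and 1 with the DESeq2 likelihood ratio test, 3 on the log2(hours + 1) scale, 1 with no filter on low counts and 1 by rank of the time point. In OB2, 0 were called, and 1 with DESeq2. Leaving out each library in turn gave 1 to 3 in OB1, 0 to 2 in OB, OB2 and IFE.SB, 0 to 1 in T cells and 0 in the other types. Without the library as block, the members called fell from 8 to 3 in IRS1 against OB1, from 11 to 5 in IRS3 and from 5 to 2 in OB3, and with doublets kept OB3 against OB1 gave 11. The cause was not tested for any of these.

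Between types, leaving out each library gave 12 to 14 members in DP and fibroblasts, 2 to 3 in IB, 13 to 14 in IFE.SB, 6 to 7 in IRS1, 3 to 11 in IRS3, 10 in Langerhans cells, 10 to 12 in melanocytes, 9 to 11 in OB2, 3 to 5 in OB3, 11 to 14 in SG, 11 to 14 in T cells, 9 to 11 in uHF.SB, 11 to 15 in OB against IFE.B and 8 to 11 in OB against uHF.B. The direction turned for Fgfr1 in T cells with doublets kept (0.15), for Spred2 in OB3 against OB1 with doublets kept (0.11) and for Fgf7, melanocytes against IFE.B, without the 4 d library (-2.89, up to 3.64 without any other library), and these 3 values did not pass the test. Of 148 single calls between types, DESeq2 kept 138, and 115 remained without the library block. In the smaller sums depth limits what can be seen of the ligands, since 3 UMIs there are worth more CPM. With the OB1, OB2 and OB3 cells together as OB, chosen after seeing the data, 9 members were called against uHF.B, 13 against IFE.B and 0 over time, and Spred1 and Fgf11 were no longer called against IFE.B (adjusted p = 0.0584 and 0.0589).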
